A study of Mus musculus with 35 samples.

Results

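The BCL2 family sets whether a cell keeps its mitochondria intact or releases cytochrome c and dies. Its 10 survival and death genes Bcl2, Bcl2l1, Mcl1, Bcl2l11, Bbc3, Pmaip1, Bax, Bak1, Bid and Bad, chosen as a list of named genes, were followed here among the 48709 genes in the count tables. All 10 passed the filter on low counts, as did 13819 genes in all. RNA was sequenced from OT-I CTLs, which are cytotoxic CD8+ T cells of a mouse line whose T cells carry one transgenic receptor, in 35 libraries of 7 groups with 5 replicates numbered 1 to 5 in the labels. The cells had been primed with antibodies to CD3 and CD28 and expanded in IL-2 before the experiment. One group was collected at the start (0 h), and 6 groups after 24 h in medium at pH 7.4, pH 7 or pH 6.6, each without added IL-2 or with 200 IU/mL of murine IL-2. No tumour cells or antigen were listed for any group, acid was added to the medium as HCl, and dead cells were removed on a Ficoll gradient before RNA extraction in every group, so the values describe the cells that were recovered.

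BCL-2, BCL-XL (from Bcl2l1) and MCL-1 hold cells alive by binding the death members of the family. BIM (from Bcl2l11), PUMA (Bbc3), NOXA (Pmaip1), BID and BAD are BH3-only proteins, which carry stress signals to the family. BAX and BAK (Bak1) form the pores in the mitochondrial outer membrane. IL-2 is known as a survival cytokine of activated T cells, which raise BH3-only proteins when it is withdrawn, and FOXO and STAT5 are transcription factors known to act on family genes downstream of growth factors and cytokines.

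After 24 h with IL-2, the 2 BH3-only genes Bcl2l11 and Bbc3 were 8.22-fold and 7.14-fold higher in medium of pH 6.6 than in control medium of pH 7.4, while Bid, Bak1 and Bcl2l1 were lower and Mcl1 was higher. IL-2 itself lowered Bcl2l11 and Bbc3 and raised Bcl2l1 and Bak1 at pH 7.4, and by less at pH 6.6. Bcl2 was raised by IL-2 by 1.52, 1.72 and 1.60 on the log2 scale at pH 7.4, 7 and 6.6. Without IL-2, pH 6.6 raised Bcl2l1, the opposite of its direction with IL-2.

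Per library, reads counted on genes numbered 16721319 to 34033340, with a median of 24730020. Raw counts of the members went from 93 for Bid to 42557 for Bcl2l11. The mean correlation of each library with the others of its group was between 0.978 and 0.992. Of the T cell markers, Cd8a was at 674 to 1600 CPM (normalized counts scaled to library size) and Cd3e at 374 to 631 CPM in all libraries. The summed level of 6 CD8+ T cell markers was 8860 to 11500 CPM at pH 7.4 with IL-2 and 2530 to 3670 CPM at pH 6.6 with IL-2, and Gzmb (36.7 to 9010 CPM over all libraries) was the most variable of them. Between these 2 groups, 2 of the 6 fell in edgeR at pH 6.6, Gzmb by 3.27 and Prf1 by 2.01 on the log2 scale (adjusted p = 5.08e-17 and 1.68e-12), while Cd3e (0.50) and Cd8a (0.16) rose and Cd3d and Cd8b1 did not pass. The 4 B cell markers together stayed at or under 0.381 CPM and the 3 erythroid markers at or under 0.235 CPM. Of the 3 NK cell markers, Ncr1 was at 0 in 25 libraries and Klra8 at 0 in 34, and the summed level (8.27 to 95 CPM) was nearly all Klrb1c. The 3 CD4+ T cell markers together stayed at or under 5.5 CPM. The summed level of 6 myeloid markers was higher at pH 6.6 with IL-2 (25.2 to 41.3 CPM) than at pH 7.4 with IL-2 (9.94 to 13 CPM), and was 24.2 to 42.8 CPM in all groups without IL-2. It was carried by Itgax and Cd68, while the defining markers Csf1r, Lyz2, Adgre1 and Siglech were at 0 in 29, 28, 18 and 35 libraries and never above 0.286 CPM. The part of these markers in the changes of the members was not tested. In bulk RNA, fewer cells of a type and less RNA per cell cannot be told apart.

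**Figure D1:**
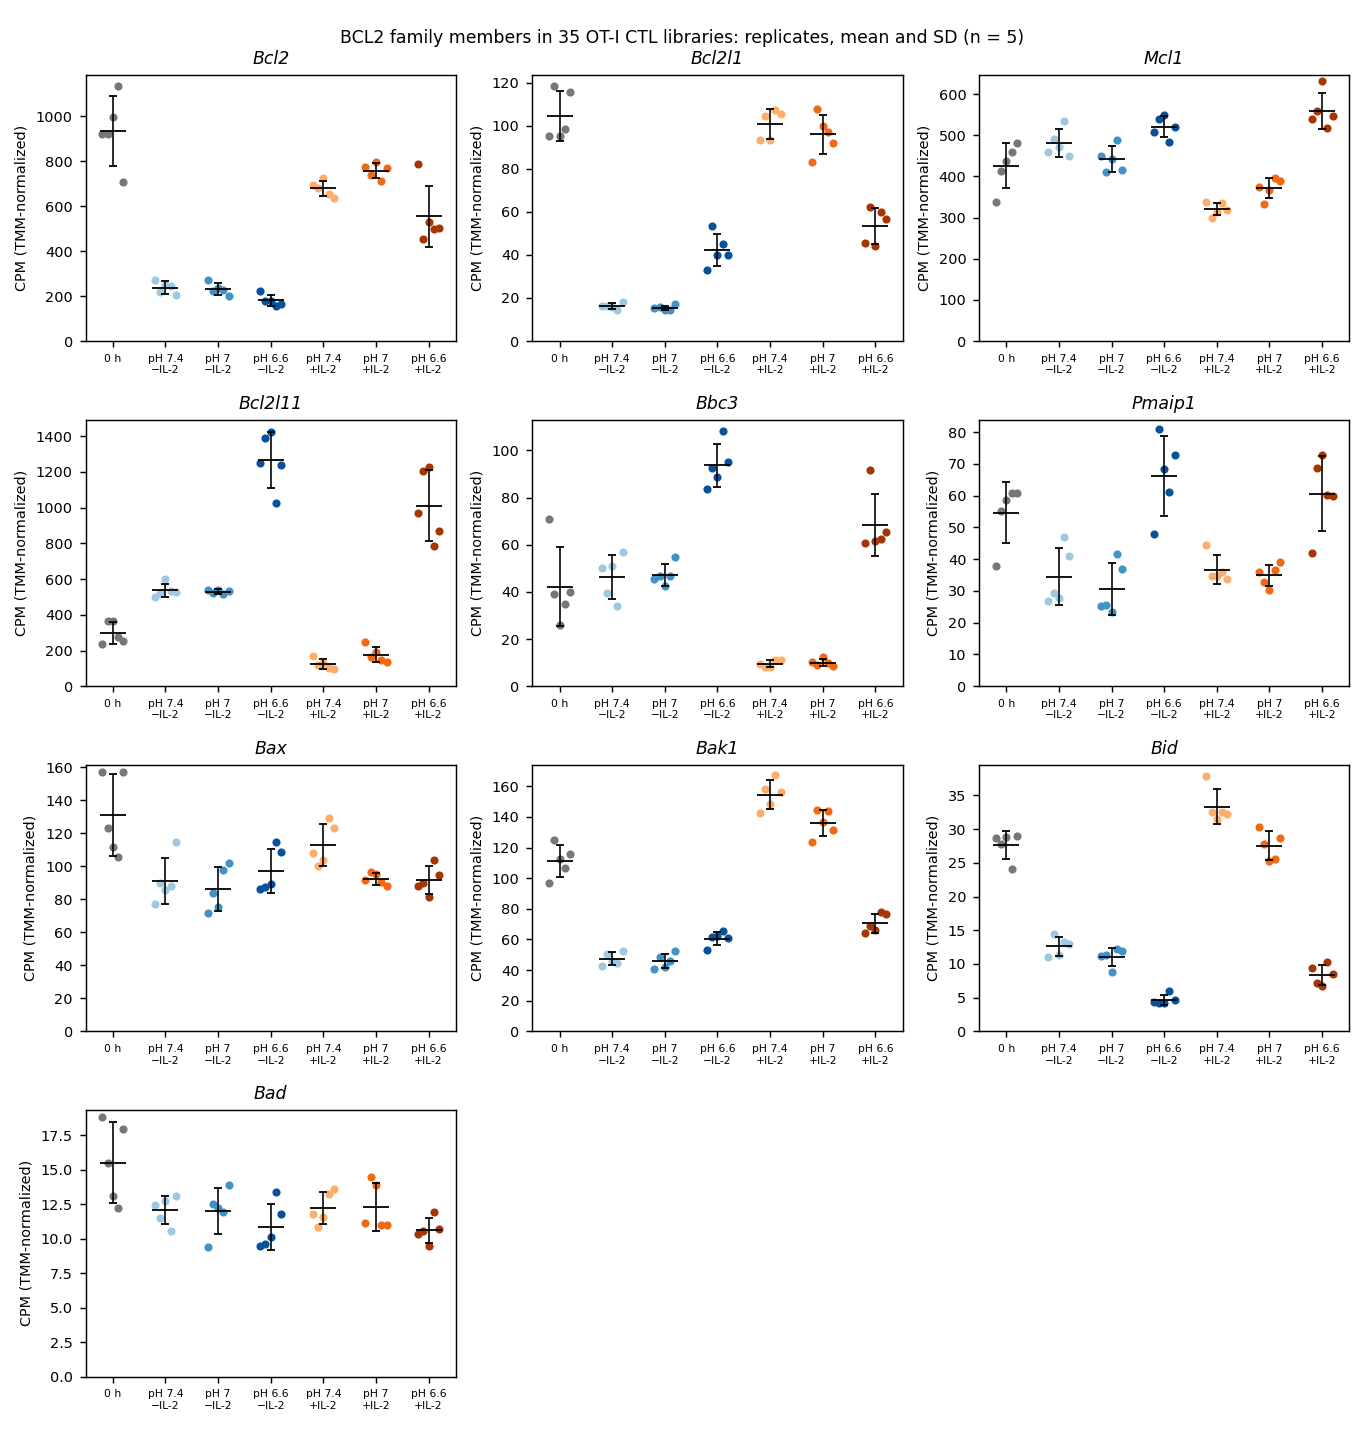
Normalized level (CPM, linear axis from 0) of each of the 10 members in the 35 libraries. Points are the 5 replicates of a group, and the bar and whiskers are the mean and SD. Bcl2l11 sat at 785 to 1230 CPM in the pH 6.6 libraries with IL-2, against 93.9 to 169 CPM in those at pH 7.4 with IL-2.

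The question of the first comparison was what acidity changed while IL-2 was present. In that contrast of pH 6.6 to pH 7.4, 9 of the 10 members passed the threshold (Benjamini-Hochberg adjusted p of 0.05 in edgeR's quasi-likelihood test over all genes tested), where 76.3% of all genes did. Of the members, 4 rose and 5 fell, beside 35.4% and 40.9% of all genes. A call was therefore common for any gene, and the sizes of the changes carry more than their number. With so many genes called, rises and falls are relative to the other transcripts of a library. Levels of RNA per cell were not available here. The median log2 fold change was -0.25 for the members and -0.07 for all genes.

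Bcl2l11 (chromosome 2, 128126038 to 128162547, plus strand, GRCm38) encodes BIM, the BH3-only protein most tied to cytokine loss in lymphocytes. At pH 7.4 with IL-2 it was at 169, 118, 130, 104 and 93.9 CPM in replicates 1 to 5. At pH 6.6 with IL-2 it was at 967, 1204, 1230, 785 and 867 CPM. The lowest acid library was above the highest control library by several times its level. The log2 fold change was 3.04 ± 0.13 (SE, edgeR adjusted p = 1.54e-19), the largest of the 10 members in this comparison.

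Bbc3 (chromosome 7, 16308393 to 16318205, plus strand) encodes PUMA, best known as a target of p53. It was at 8.17 to 11.3 CPM at pH 7.4 with IL-2. At pH 6.6 with IL-2 it was at 60.7, 91.7, 61.4, 62.6 and 65.4 CPM. The groups did not overlap, and replicate 2 stood above the other 4 acid libraries. The log2 fold change was 2.84 ± 0.19 (SE, edgeR adjusted p = 9.02e-15).

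Pmaip1 (chromosome 18, 66458533 to 66465565, plus strand) encodes NOXA, which binds MCL-1. It was at 33.7 to 44.5 CPM at pH 7.4 with IL-2, against 41.8 to 72.8 CPM at pH 6.6 with IL-2, a log2 fold change of 0.70 ± 0.15 (SE, edgeR adjusted p = 9.65e-05). The groups overlapped, because replicate 1 was the highest of the control libraries and the lowest of the acid ones. It was higher in 4 of 5 replicate pairs.

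Bid (chromosome 6, 120891930 to 120916853, minus strand) encodes the BH3-only protein that caspase-8 cuts, and it moved against Bcl2l11. It was at 37.8, 32.6, 31.6, 32.5 and 32.2 CPM at pH 7.4 with IL-2, against 9.48, 7.16, 6.75, 10.2 and 8.5 CPM at pH 6.6 with IL-2. No acid library came near the control libraries, and the log2 fold change was -1.99 ± 0.10 (SE, edgeR adjusted p = 1.23e-17). Bad (chromosome 19, 6941861 to 6951899, plus strand), whose protein is held inactive by phosphorylation, was the member that did not pass the test, at 10.8 to 13.6 CPM and 9.44 to 12 CPM (log2 fold change -0.20, 95% confidence interval -0.45 to 0.05).

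Among the survival genes, Bcl2l1 (chromosome 2, 152780668 to 152831728, minus strand) was at 93.3, 105, 93.5, 107 and 106 CPM at pH 7.4 with IL-2. It was at 45.4, 62, 43.9, 59.8 and 56.5 CPM at pH 6.6 with IL-2. Every acid library was lower than every control library (log2 fold change -0.92 ± 0.08, SE, edgeR adjusted p = 5.75e-12).

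Mcl1 (chromosome 3, 95658788 to 95663176, plus strand), whose protein turns over fast, went the other way. It was at 300.1 to 338 CPM at pH 7.4 with IL-2, against 518 to 631 CPM at pH 6.6 with IL-2. The groups were well apart, with a log2 fold change of 0.80 ± 0.08 (SE, edgeR adjusted p = 3e-11).

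Bcl2 (chromosome 1, 106538178 to 106714274, minus strand) fell by 0.31 on the log2 scale (SE 0.09, edgeR adjusted p = 0.00415). It was at 694, 681, 727, 655 and 636 CPM at pH 7.4 with IL-2, against 789, 452, 529, 498 and 504 CPM at pH 6.6 with IL-2. Replicate 1 of the acid group was above every control library while the other 4 were below them, so the groups overlapped. Without replicate 2 the log2 fold change was -0.17 and the call was lost (edgeR adjusted p = 0.195).

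Of the pore-forming genes, Bak1 (chromosome 17, 27019810 to 27029009, minus strand) fell by 1.13 on the log2 scale (SE 0.06, edgeR adjusted p = 2.51e-17). It was at 143 to 168 CPM at pH 7.4 with IL-2, against 64.4 to 78 CPM at pH 6.6 with IL-2, with no overlap. Bax (chromosome 7, 45461697 to 45466898, minus strand) fell by 0.30 (SE 0.10, edgeR adjusted p = 0.00678). Its groups, at 100.2 to 129 CPM and 81.1 to 104 CPM, overlapped, although each acid library was lower than the control library of the same number. Of the exon bases of Bak1, Bid and Bad, 25.5%, 17.7% and 20.5% are covered by a gene on the other strand (Ggnbp1, Bcl2l13 and Gpr137). Bax shares 12.2% of its exon bases with Gm45808 on its own strand. The strand setting of the counting is not given in the sources used here. How reads in these shared stretches were assigned, or whether they were left out, is therefore not known.

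**Figure D2:**
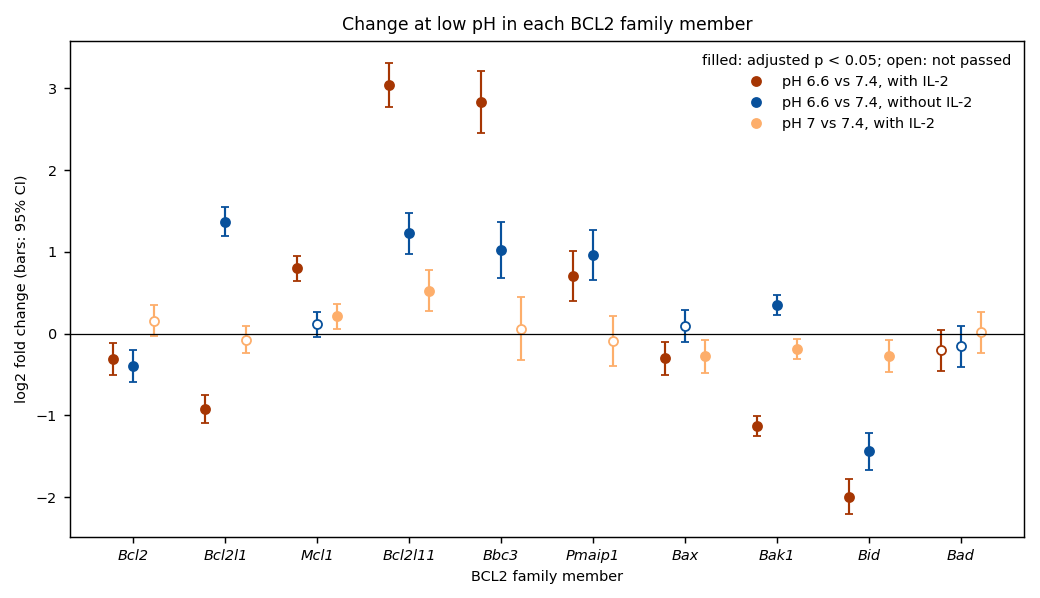
Log2 fold change of each member at low pH relative to pH 7.4 in the same cytokine condition. Bars are 95% confidence intervals from the fit of all 35 libraries, with 5 replicates per group. Filled circles passed an adjusted p of 0.05 in edgeR and open circles did not. Bcl2l1 and Bak1 lay below 0 with IL-2 (-0.92 and -1.13) and above 0 without it (1.37 and 0.35).

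The Bcl2l11 and Bbc3 genes, which rose together, also shared a short sequence upstream of a start site. The 7 letters TGTTTAC, the core that FOXO factors are known to bind, were searched on both strands of RefSeq promoter windows (GRCm38.p6, 250 bases before to 50 after each start). Windows were matched for 9 of the 10 members. Pmaip1, which also rose at pH 6.6, had none and was not searched. Bcl2l11 had 2 windows and Bbc3 3, beside 1 to 3 for the other members matched. Of the 32851 windows, 3.65% held the letters, or 4.05% of 27025 genes with a window. Of the 15 windows of members 2 did, and Bcl2l11 and Bbc3 were the 2 members that held them. The upstream stretches are shown, 5′ to 3′, because they hold the match, which is in capitals and stands on the reverse strand in Bcl2l11. They are chr2:128125788-128126037 and chr7:16310011-16310260, both on the plus strand and outside annotated exons, and the second lies inside the annotated span of Bbc3, before an internal start site.
Bcl2l11: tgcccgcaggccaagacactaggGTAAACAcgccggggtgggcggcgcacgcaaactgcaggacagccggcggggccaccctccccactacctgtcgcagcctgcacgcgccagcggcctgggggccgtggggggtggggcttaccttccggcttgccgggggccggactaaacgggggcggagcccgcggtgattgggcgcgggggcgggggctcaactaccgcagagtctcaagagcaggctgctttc
Bbc3: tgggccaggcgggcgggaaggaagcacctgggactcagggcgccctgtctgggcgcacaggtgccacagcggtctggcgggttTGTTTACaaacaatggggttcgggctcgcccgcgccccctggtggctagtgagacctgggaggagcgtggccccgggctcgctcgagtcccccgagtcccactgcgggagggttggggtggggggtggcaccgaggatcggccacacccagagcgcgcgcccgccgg
The matches began at -227 in Bcl2l11 and -167 in Bbc3, counted from the start site. Other letters were searched in the same way. The E-box CACGTG was in 7.15% of windows and in 2 members, Bbc3 and Bax. The letters TTCNNNGAA, known to be bound by STAT5, were in 8.3% of windows and TGACGTCA, the cAMP response element, in 1.79%, and neither was in a window of a member. Bmf, a further BH3-only gene that rose at pH 6.6, had 3 windows, and none held any of the 4 sets of letters. A match is only a match of letters, and binding was not measured.

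At the milder pH 7 with IL-2, 5 of the 10 members passed the threshold against pH 7.4, where 19% of all genes did. They were 2 that rose and 3 that fell, beside 9.15% and 9.83%. Bcl2l11 was the highest riser among the members. It was at 245, 164, 192, 145 and 138 CPM in replicates 1 to 5, above the pH 7.4 library of the same number in 5 of 5 pairs, although the groups overlapped. Its log2 fold change was 0.52 ± 0.12 (SE, edgeR adjusted p = 0.00295). The level of Bcl2l11 thus ran from a mean of 123 ± 29 CPM (SD, n = 5) at pH 7.4 through 177 ± 43.6 at pH 7 to 1010 ± 199 at pH 6.6. Bbc3 showed no such intermediate step, with 8.38 to 12.4 CPM at pH 7 against 8.17 to 11.3 CPM at pH 7.4 (log2 fold change 0.06, 95% confidence interval -0.32 to 0.45).

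The other 4 calls at pH 7 were Mcl1 (log2 fold change 0.21, edgeR adjusted p = 0.0469), Bax (-0.28, edgeR adjusted p = 0.044), Bak1 (-0.19, edgeR adjusted p = 0.0276) and Bid (-0.27, edgeR adjusted p = 0.0429). These were close to the threshold. Without the replicate number as a block, Bcl2l11 was the 1 member that passed, and with any 1 replicate left out 1 to 3 members passed.

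Without IL-2, pH 6.6 changed 7 of the 10 members against pH 7.4, where 67% of all genes passed. Of these, 5 rose and 2 fell, beside 31.6% and 35.4% of all genes. Bcl2l11 rose again, from 499 to 599 CPM at pH 7.4 up to 1026 to 1426 CPM at pH 6.6 (log2 fold change 1.23 ± 0.12, SE, edgeR adjusted p = 2.81e-10). Bbc3 rose from 34 to 57.1 CPM up to 83.7 to 108 CPM (1.02 ± 0.17, SE, edgeR adjusted p = 4.17e-06). Neither pair of groups overlapped. Pmaip1 rose from 27 to 46.9 CPM up to 47.8 to 81 CPM (0.96 ± 0.15, SE, edgeR adjusted p = 1.51e-06), here also without overlap.

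Bcl2l1 also rose without IL-2. It was at 16.3, 16.1, 15.9, 14.4 and 18.3 CPM at pH 7.4 and at 33, 53.2, 40.1, 45 and 40.1 CPM at pH 6.6. The lowest acid library was well above the highest control library, and the log2 fold change was 1.37 ± 0.09 (SE, edgeR adjusted p = 5.78e-15). Bak1 rose slightly, from 42.8 to 52.7 CPM up to 53.2 to 65.4 CPM (0.35 ± 0.06, SE, edgeR adjusted p = 6.47e-06).

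Bid and Bcl2 fell without IL-2 as they did with it. Bid was at 11, 14.5, 11.3, 13.2 and 13 CPM at pH 7.4 and at 4.15 to 5.93 CPM at pH 6.6, the lowest level of any member in any group (-1.44 ± 0.11, SE, edgeR adjusted p = 6.12e-13). Bcl2 was at 205 to 272 CPM and 158 to 223 CPM (-0.39 ± 0.10, SE, edgeR adjusted p = 0.000549). Mcl1, Bax and Bad did not pass, with log2 fold changes of 0.11, 0.10 and -0.15.

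Between pH 7 and pH 7.4 without IL-2, 0 of the 10 members passed the threshold in edgeR, where 1.68% of all genes did (1.36% higher and 0.318% lower). No member passed at an unadjusted p of 0.05 in edgeR or by DESeq2. The log2 fold changes went from -0.19 for Bid to 0.03 for Bbc3.

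Whether IL-2 altered the response to pH 6.6 was tested as an interaction, which passed the threshold for 67% of all genes. Of the members, 3 were positive and 4 negative, beside 34.3% and 32.8% of all genes. The effect of pH 6.6 was more positive with IL-2 for Bcl2l11 by 1.81 on the log2 scale (SE 0.17, edgeR adjusted p = 7.66e-11), for Bbc3 by 1.81 (SE 0.25, edgeR adjusted p = 1.41e-07) and for Mcl1 by 0.68 (SE 0.11, edgeR adjusted p = 1.25e-06). It was more negative with IL-2 for Bcl2l1 (-2.29 ± 0.12, SE, edgeR adjusted p = 3.34e-17), Bak1 (-1.48 ± 0.09, SE, edgeR adjusted p = 5.18e-16) and Bid (-0.55 ± 0.15, SE, edgeR adjusted p = 0.00169). For Bax it was -0.39 (edgeR adjusted p = 0.0131), a call that was lost without replicate 1 (-0.29, edgeR adjusted p = 0.0737) or without replicate 2 (-0.36, edgeR adjusted p = 0.0596). Bcl2, Pmaip1 and Bad did not pass, with intervals of -0.19 to 0.36 for Bcl2, -0.69 to 0.17 for Pmaip1 and -0.40 to 0.31 for Bad.

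The same data read the other way show what IL-2 changed at each pH. At pH 7.4, 8 members differed between cells with and without IL-2, where 80.4% of all genes did. Of these, 5 were higher and 3 lower with IL-2, beside 39.3% and 41.1% of all genes. IL-2 raised Bcl2l1 most, from 14.4 to 18.3 CPM up to 93.3 to 107 CPM (log2 fold change 2.63 ± 0.09, SE, edgeR adjusted p = 4.98e-23). It also raised Bak1 (1.71 ± 0.06, SE), Bcl2 (1.52 ± 0.10, SE), Bid (1.40 ± 0.10, SE) and Bax (0.31 ± 0.10, SE). The Bax call was lost without replicate 1 (0.21, edgeR adjusted p = 0.0531).

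IL-2 lowered Bbc3 at pH 7.4 from 34 to 57.1 CPM down to 8.17 to 11.3 CPM (-2.27 ± 0.18, SE, edgeR adjusted p = 1.03e-12). It lowered Bcl2l11 from 499, 525, 599, 532 and 529 CPM to 169, 118, 130, 104 and 93.9 CPM (-2.15 ± 0.13, SE, edgeR adjusted p = 1.54e-16). Mcl1 was lower too, with 450.5 to 535.5 CPM without IL-2 and 300.1 to 338 CPM with it (-0.58 ± 0.08, SE, edgeR adjusted p = 2.24e-08). None of these pairs of groups overlapped. Comparisons that share the libraries at pH 7.4 with IL-2 are not independent of each other.

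At pH 7, 7 members passed, where 77.2% of all genes did, 4 of them higher and 3 lower beside 37.6% and 39.5%. The IL-2 effect was 2.64 for Bcl2l1, 1.72 for Bcl2, 1.57 for Bak1 and 1.32 for Bid on the log2 scale, and -2.23 for Bbc3, -1.61 for Bcl2l11 and -0.25 for Mcl1. The groups did not overlap for any of these 7. The share of all genes without overlap was not computed, and the 77.2% is that of edgeR calls.

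At pH 6.6, 6 members passed, where 23.7% of all genes did, 4 of them higher and 2 lower beside 13.2% and 10.6%. Bcl2 kept a large IL-2 effect, with 223, 180, 180, 158 and 166 CPM without IL-2 and 789, 452, 529, 498 and 504 CPM with it (1.60 ± 0.10, SE, edgeR adjusted p = 7.79e-14). Bid followed, with 4.15 to 5.93 CPM and 6.75 to 10.2 CPM (0.85 ± 0.11, SE, edgeR adjusted p = 7.23e-07). These were the 2 members whose groups did not overlap. The share of all genes without overlap was not computed, and the 23.7% is that of edgeR calls.

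The remaining IL-2 effects at pH 6.6 were small. Bcl2l1 was raised by 0.34 (edgeR adjusted p = 0.00244) and Bak1 by 0.22 (edgeR adjusted p = 0.00692) on the log2 scale. Bcl2l11 was lowered by IL-2 (-0.33, edgeR adjusted p = 0.0432) from 1026 to 1426 CPM to 785 to 1230 CPM. Bbc3 was also lowered (-0.45, edgeR adjusted p = 0.0467). The calls of Bcl2l11 and Bbc3 were lost without the replicate block (edgeR adjusted p = 0.131 and 0.0575) and under RLE normalization (edgeR adjusted p = 0.053 and 0.054). They were also lost under the looser filter (edgeR adjusted p = 0.0768 and 0.142). The call of Bcl2l11 was lost without replicate 2, 3, 4 or 5 (edgeR adjusted p = 0.0786 to 0.164). That of Bbc3 was lost without replicate 1, 3, 4 or 5 (edgeR adjusted p = 0.0635 to 0.212). Mcl1, Pmaip1, Bax and Bad did not pass.

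**Figure D3:**
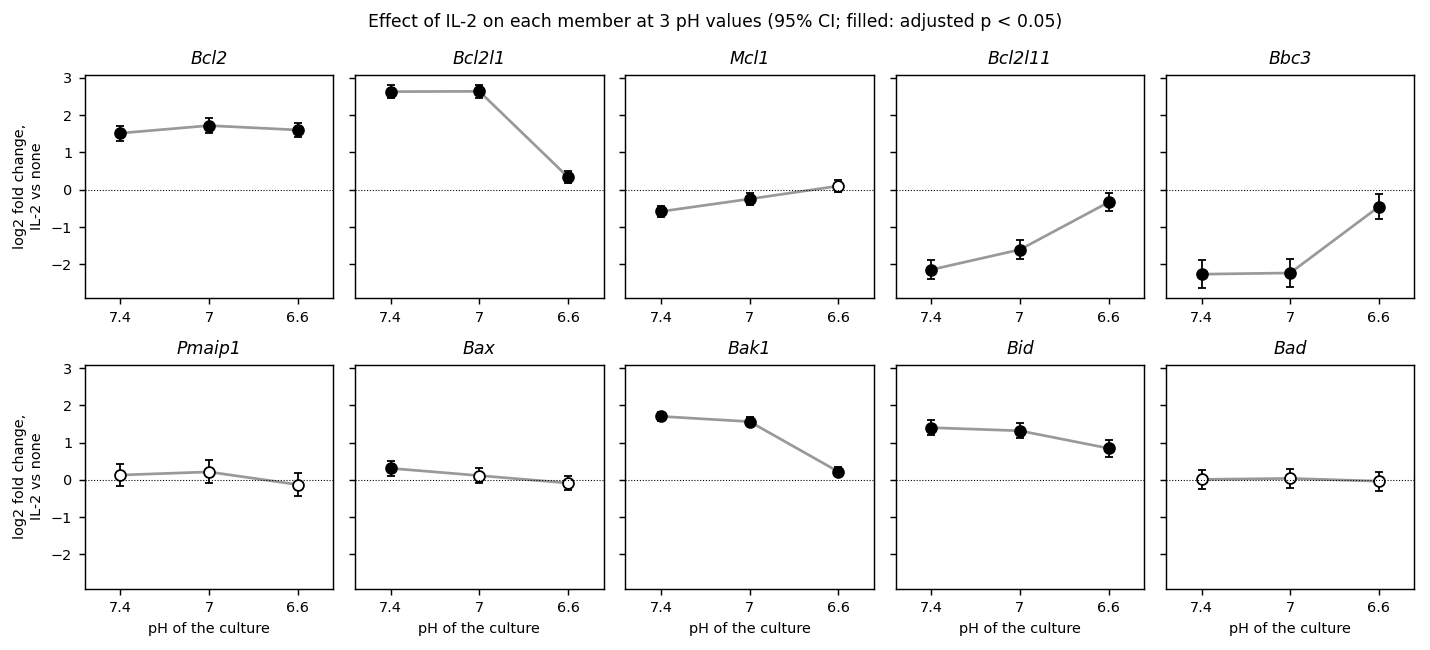
Log2 fold change between cells with and without IL-2 for each member at pH 7.4, 7 and 6.6. Bars are 95% confidence intervals from the fit of all 35 libraries, with 5 replicates per group. Filled circles passed an adjusted p of 0.05 in edgeR. The effect on Bcl2 was 1.52, 1.72 and 1.60, while that on Bcl2l1 was 2.63, 2.64 and 0.34.

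Across the 7 groups, the order of levels differed between members. The neighbours in these orders include pairs beyond the comparisons above, in which the share of all genes past the threshold was 54.3% for pH 7 with IL-2 and 75.4% for pH 7 without it, each to 0 h, 72.4% for pH 6.6 to pH 7 with IL-2 and 66.6% without. It was 76.9% for pH 7 with IL-2 to pH 7.4 without, 64.7% for pH 6.6 with IL-2 to pH 7 without, and 80.8% and 78.5% for pH 7.4 and pH 7 with IL-2 to pH 6.6 without. Mean Bcl2l11 was highest at pH 6.6 without IL-2, followed by pH 6.6 with IL-2, then pH 7.4 and pH 7 without IL-2. Next came 0 h, pH 7 with IL-2 and pH 7.4 with IL-2. Neighbours in that order differed in edgeR except pH 7.4 and pH 7 without IL-2. The call between pH 6.6 without and with IL-2 is the one given above that was lost under several settings. Acid medium with IL-2 left Bcl2l11 above the level that followed IL-2 withdrawal at pH 7.4 (log2 fold change 0.89, edgeR adjusted p = 1.64e-07, where 64.4% of all genes passed). Bbc3 was likewise higher at pH 6.6 with IL-2 than at pH 7.4 without it (0.57, edgeR adjusted p = 0.00416). In the order of Bbc3, the neighbours from pH 7 without IL-2 through pH 7.4 without IL-2 to 0 h did not differ beyond their spread, nor did pH 7 and pH 7.4 with IL-2. Its call between pH 6.6 without and with IL-2 was likewise lost under several settings.

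Bcl2 was highest at 0 h (935 ± 155 CPM, SD, n = 5), and all 3 groups with IL-2 stood above all 3 without it. Its neighbours differed in edgeR except pH 7 and pH 7.4, with IL-2 and without. Bcl2l1 was highest at 0 h (105 ± 11.5 CPM), pH 7.4 with IL-2 (101 ± 6.85) and pH 7 with IL-2 (95.9 ± 9.15), whose neighbours did not differ beyond their spread, and lowest at pH 7 without IL-2 (15.4 ± 1.08). Mcl1 ranged from 321 ± 15.5 CPM at pH 7.4 with IL-2 to 559 ± 43.1 CPM at pH 6.6 with IL-2. Its upper 5 groups did not differ beyond their spread as neighbours, but some further apart did. Against 0 h, the last of these 5, Mcl1 was higher at pH 6.6 with IL-2 (0.39, edgeR adjusted p = 2.87e-05) and without it (0.29, edgeR adjusted p = 0.000866).

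Bak1 was ordered from pH 7.4 with IL-2 (155 ± 9.62 CPM) to pH 7 without IL-2 (46 ± 4.65), and each neighbouring pair differed except pH 7.4 and pH 7 without IL-2. Bid had the same top and ended at pH 6.6 without IL-2 (4.66 ± 0.743 CPM). In the orders of Bax and Bad, 1 of the 6 neighbouring pairs each differed, and of Pmaip1 likewise 1, the step from 0 h down to pH 7.4 with IL-2. On a scale per length, CPM per kb of exon, Mcl1 had the highest mean of the 3 survival genes in all 7 groups, for example 163 ± 12.6 at pH 6.6 with IL-2 beside 60.6 ± 14.6 for Bcl2 and 11.7 ± 1.82 for Bcl2l1.

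Against the start of the culture, pH 7.4 with IL-2 changed 8 members, where 59.9% of all genes passed, 2 of them higher and 6 lower beside 29% and 30.9%, and the steepest were the falls of Bbc3 (-2.12 ± 0.18, SE, edgeR adjusted p = 2.83e-11) and Bcl2l11 (-1.28 ± 0.12, SE, edgeR adjusted p = 1.85e-10). Bcl2l1 did not pass (-0.05, 95% confidence interval -0.21 to 0.12). At pH 7.4 without IL-2, 9 members passed, where 75.2% of all genes did, 2 of them higher and 7 lower beside 36.9% and 38.3%. Bcl2l1 (-2.68 ± 0.09, SE), Bcl2 (-1.98 ± 0.10, SE), Bak1 (-1.23 ± 0.06, SE) and Bid (-1.14 ± 0.10, SE) fell and Bcl2l11 rose (0.86 ± 0.12, SE), while Bbc3 did not pass (0.15, 95% confidence interval -0.20 to 0.49). Single replicates weighed on this last value. Bbc3 at 0 h was at 70.9 CPM in replicate 1 and at 26 to 40.1 CPM in the other 4. Without replicate 1 the log2 fold change was 0.42 (edgeR adjusted p = 0.0197). Without replicate 3, which was at 26 CPM at 0 h, it turned to -0.03 (edgeR adjusted p = 0.871).

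At pH 6.6 with IL-2, 9 members differed from 0 h, where 68.5% of all genes did (30.5% higher and 38% lower). Of the members, 3 were higher and 6 lower, with Bcl2l11 higher (1.76 ± 0.13, SE), Bbc3 higher (0.72 ± 0.17, SE), Bid lower (-1.73 ± 0.10, SE) and Bcl2l1 lower (-0.97 ± 0.08, SE). At pH 6.6 without IL-2, 9 members passed, where 75.1% of all genes did (34.8% higher and 40.3% lower), again 3 higher and 6 lower. Bid (-2.58 ± 0.11, SE) and Bcl2 (-2.37 ± 0.10, SE) were the steepest falls there and Bcl2l11 (2.09 ± 0.13, SE) the steepest rise. These 4 comparisons share the libraries of 0 h.

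**Figure D4:**
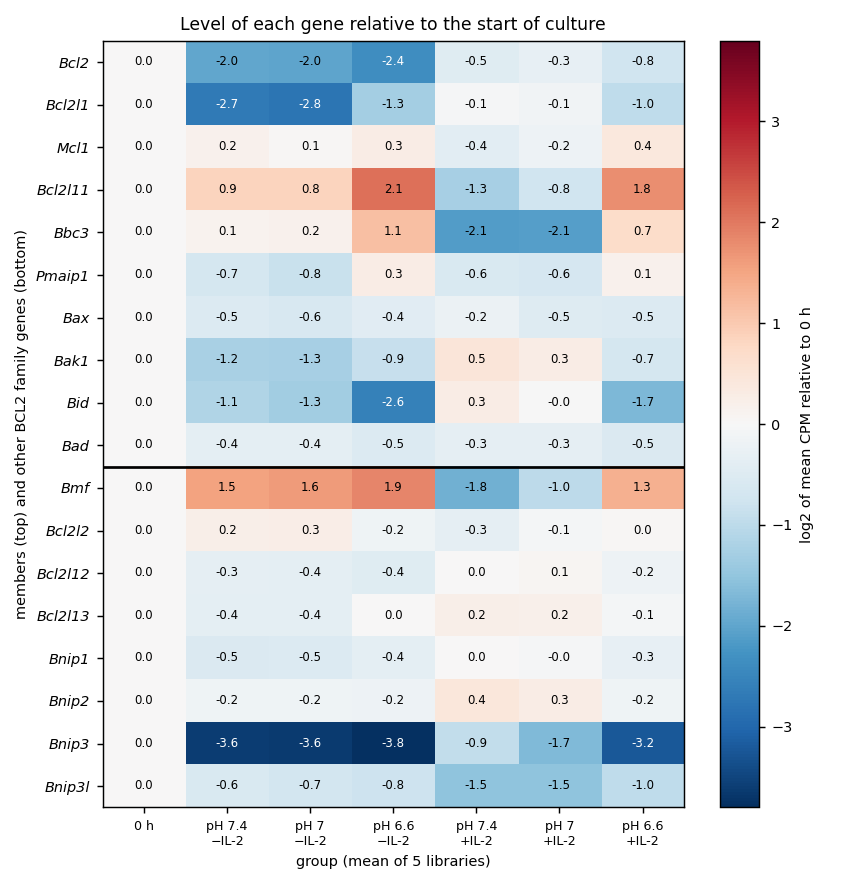
Log2 of the mean CPM of each group relative to 0 h (mean of 5 libraries per group) for the 10 members, above the line, and 8 other BCL2 family genes, below it. Bcl2l11, Bbc3 and Bmf were above 0 in both pH 6.6 groups and below 0 at pH 7.4 and pH 7 with IL-2.

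A survival gene can be set beside a death gene within each library as the ratio of their CPM per kb, here as a description with no test. Bcl2 over Bcl2l11 had a median of 5.07 (3.61 to 5.94) at pH 7.4 with IL-2, 3.94 (2.77 to 4.91) at pH 7 with IL-2 and 0.51 (0.329 to 0.715) at pH 6.6 with IL-2. In cells without IL-2 its median was 0.367 (0.339 to 0.479) at pH 7.4 and 0.117 (0.111 to 0.157) at pH 6.6, and it was 2.46 (2.22 to 3.62) at 0 h. The ratio was thus over 1 in each library at 0 h and at pH 7.4 or pH 7 with IL-2, and under 1 in each of the others. Bcl2l1 over Bcl2l11 was already under 1 at 0 h (0.46 to 0.80). It was 0.969 to 1.97 at pH 7.4 with IL-2 and 0.0625 to 0.133 at pH 6.6 with IL-2. The length used is that of all annotated exons of a gene together, so where a ratio crosses 1 depends on it.

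Bcl2l1 over Bbc3 had a median of 4.54 (4.41 to 5.88) at pH 7.4 with IL-2 and 0.346 (0.313 to 0.442) at pH 6.6 with IL-2. Mcl1 over Bcl2l11 kept above 1 in 5 of 5 libraries at pH 6.6 with IL-2, with a median of 1.31 (1.09 to 1.55) against 5.99 (4.71 to 7.98) at pH 7.4 with IL-2, and was over 1 in 1 of 5 libraries at pH 6.6 without IL-2. Mcl1 over Pmaip1 had medians of 7.21 (6.07 to 7.56) and 6.93 (6.51 to 10.3) at pH 7.4 and pH 6.6 with IL-2. In cells without IL-2 its median was 13.3 (8.76 to 13.6) at pH 7.4 and 6.33 (5.32 to 8.51) at pH 6.6. Ratios of transcripts per exon length say nothing of the ratios of the proteins.

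**Figure D5:**
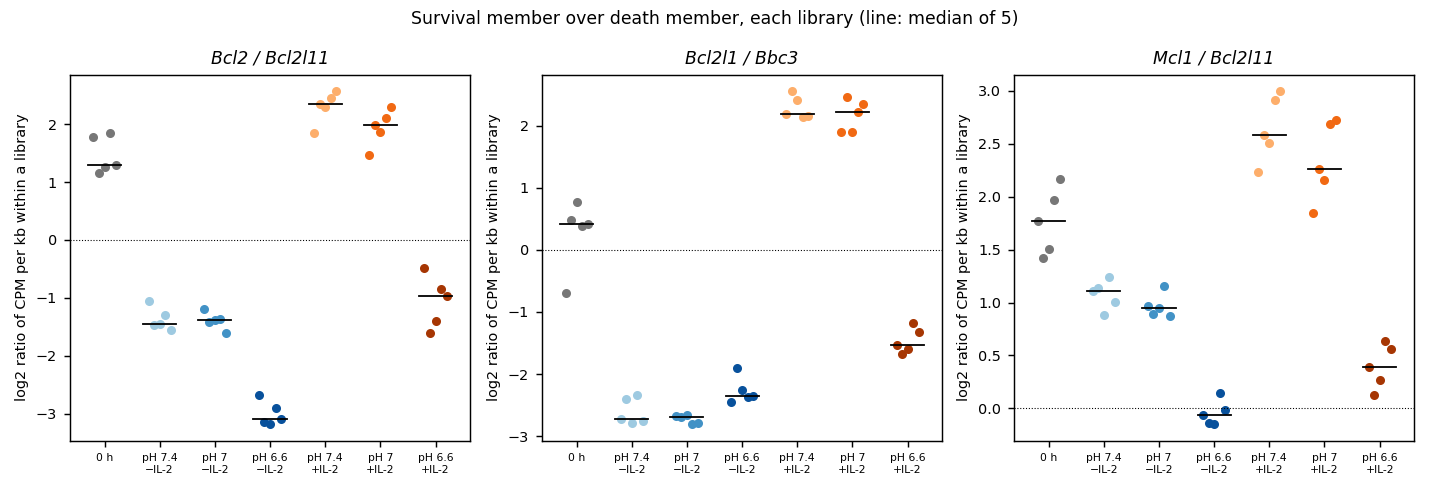
Log2 ratio of a survival gene to a death gene (CPM per kb of exon) in each library, with the group median as a line. The dotted line at 0 marks equal levels on this scale. The libraries at pH 6.6 with IL-2 lay below 0 for Bcl2 over Bcl2l11 and for Bcl2l1 over Bbc3, and above 0 for Mcl1 over Bcl2l11.

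Other BCL2 family genes were listed too, 17 in all, of which 11 passed the filter on low counts. With IL-2, 4 of these rose and 5 fell at pH 6.6, beside 35.4% and 40.9% of all genes, with a median of -0.21 on the log2 scale beside -0.07 for all genes. Bmf, another BH3-only gene, moved with Bcl2l11 in cells with IL-2. Its mean was 2.19 ± 0.619 CPM (SD, n = 5) at pH 7.4 with IL-2, 3.95 ± 1.39 at pH 7 with IL-2, 19.8 ± 2.35 at pH 6.6 with IL-2. Without IL-2 it was 22.6 ± 2.35 CPM at pH 7.4. Its log2 fold change at pH 6.6 with IL-2 was 3.19 (edgeR adjusted p = 1.88e-18), and at pH 7 it was 0.85 (edgeR adjusted p = 0.00049). Without IL-2 the 2 genes were less alike. Relative to 0 h, the log2 of mean Bmf was 1.53 at pH 7.4 and 1.85 at pH 6.6 without IL-2. For Bcl2l11 these values were 0.85 and 2.09.

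Bnip3, whose protein marks mitochondria for autophagy, went the other way (-2.19, edgeR adjusted p = 3.53e-10), from 65.9 to 323 CPM down to 39.3 to 49.5 CPM. IL-2 lowered Bmf by 3.37 on the log2 scale at pH 7.4 (edgeR adjusted p = 1.5e-19) and by 0.50 at pH 6.6 (edgeR adjusted p = 0.0039). Bcl2a1b, from a group of near-identical survival genes, rose by 0.58 (edgeR adjusted p = 0.006), an uncertain value because 20.8% of its 50-base windows are found in no other gene.

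Of 12 genes of outer membrane partners, 9 fell and 0 rose at pH 6.6 with IL-2, beside 40.9% and 35.4% of all genes, among them Vdac1 (-0.97, edgeR adjusted p = 4.04e-13) and Mtch2 (-1.05, edgeR adjusted p = 3.3e-13), the receptor of cleaved BID, and 3 did not pass. Their median log2 fold change was -0.54, and that of all genes -0.07. At pH 7.4, IL-2 raised 9 of the 12 and lowered 0, beside 39.3% and 41.1% of all genes, with Vdac1 at 1.39 (edgeR adjusted p = 2.8e-17). Without IL-2, pH 6.6 raised 5 and lowered 1, beside 31.6% and 35.4% of all genes, and Vdac2, which holds BAK at the membrane, rose by 0.63 (edgeR adjusted p = 6.4e-09).

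Of 20 tested genes of the apoptosome and caspases, 7 rose and 10 fell at pH 6.6 with IL-2, beside 35.4% and 40.9% of all genes, with a median of -0.15 beside -0.07. Birc2, an inhibitor of apoptosis protein, rose by 2.40 (edgeR adjusted p = 1.5e-19), and Birc5, which is better known for its role in cell division, changed by -2.40 (edgeR adjusted p = 9.5e-13). Of the 13 death receptor genes, 7 rose and 5 fell in the same comparison, with a median of 0.17. Fas rose by 1.44 (edgeR adjusted p = 2.3e-09) and Cflar, which blocks caspase-8, by 0.80 (edgeR adjusted p = 1.7e-11), while the adaptor Fadd changed by -1.44 (edgeR adjusted p = 7.3e-15).

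Of 25 genes of p53 and its targets, 14 rose and 4 fell at pH 6.6 with IL-2, beside 35.4% and 40.9% of all genes, with a median of 0.52 beside -0.07. Plk2 (2.68, edgeR adjusted p = 3.1e-14), Trp53inp1 (2.43, edgeR adjusted p = 4.7e-13) and Gadd45a (2.17, edgeR adjusted p = 1.5e-14) rose most, and Trp53 itself changed by -0.59 (edgeR adjusted p = 2.8e-10). Without IL-2, 15 rose and 3 fell, beside 31.6% and 35.4% of all genes, with a median of 0.45 beside -0.03.

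Of 19 genes of the FOXO and STAT5 axis, 12 rose and 4 fell at pH 6.6 with IL-2, beside 35.4% and 40.9% of all genes, with a median of 0.84 beside -0.07. The list pools genes of both factors, so its counts do not stand for either one. Pik3ip1 (3.21, edgeR adjusted p = 7.6e-23), Cdkn1b (2.62, edgeR adjusted p = 7.6e-14) and Txnip (2.39, edgeR adjusted p = 9.5e-21) were the highest. The STAT5 target Cish was raised by IL-2 by 3.10 at pH 7.4 (edgeR adjusted p = 4e-16) and by 1.90 at pH 6.6 (edgeR adjusted p = 1.1e-09), an interaction of -1.21 (edgeR adjusted p = 5.8e-05). Of 10 tested genes of MCL-1 and BIM protein turnover, 3 rose and 5 fell at pH 6.6 with IL-2, again beside 35.4% and 40.9%, with a median of -0.10. The deubiquitinase Usp9x, which protects MCL-1, rose by 0.80 (edgeR adjusted p = 1e-05), and Dynll1, the dynein light chain that tethers BIM, changed by -1.82 (edgeR adjusted p = 1.1e-13).

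The genes whose log2 CPM followed a member most closely over the 35 libraries were named by Pearson's r, as a description. Points of one group share their condition, so these r are over libraries that differ by group. For Bcl2l11 they were P2ry10 (0.985), Heca (0.984) and Ifngr1 (0.983), for Bbc3 Usf2 (0.979), Tcf25 (0.974) and Pex5 (0.972), and for Bak1 Pdia6 (0.992), G3bp1 (0.99) and Banf1 (0.99). For Bid they were Ftsj3 (0.985), Noa1 (0.984) and Rpp14 (0.984), for Bcl2 P2ry14 (0.964), Ccnd2 (0.96) and Tcrg-C1 (0.954), and for Bcl2l1 Adap1 (0.99) and Npm3 (0.978). For Mcl1 they were Zfp263 (0.938), Ypel5 (0.931) and Cpeb2 (0.92), for Pmaip1 Slc19a2 (0.938), Klf6 (0.922) and Plk2 (0.896), for Bax Polr1c (0.901), Aprt (0.881) and Cdk9 (0.867), and for Bad Pigyl (0.878), Def6 (0.869) and Pcbp4 (0.865).

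Among the members and Bmf, r was 0.909 between Bcl2l11 and Bbc3, 0.927 between Bcl2l11 and Bmf, 0.934 between Bcl2l1 and Bak1 and -0.937 between Bcl2l11 and Bid, again over 35 libraries. The pair of pore-forming genes had a lower r of 0.53, and Pmaip1 had an r of 0.48 with Bcl2l11.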

How the data were processed

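RNA of 35 libraries was measured by stranded sequencing of polyadenylated RNA with single reads. The authors deposited raw counts of reads per gene for each library, without normalization. The submitters' processing notes name cutadapt 1.8, STAR 2.5.2b, HTSeq 0.6.1 and GRCm38. The annotation, strand setting and read length are not given in the sources used here. The HTSeq summary lines did not enter library sizes. Of the sum of all lines, they hold a median of 37.1% under several alignments, 7.42% under no feature and 0.92% under ambiguous. The share under no feature was 3.91 to 5.18% at pH 7.4 with IL-2 and 7.34 to 8.83% at pH 6.6 with IL-2. Its part in the changes of the members was not tested. Reads with several alignments are in no gene count, which can lower genes that have near copies. Identifiers were matched to GENCODE M21 symbols for 48349 genes.

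In R 4.3.3, edgeR 4.0.16 kept 13819 genes (filterByExpr, minimum count 10), normalized by TMM and fitted one robust quasi-likelihood model with group and replicate number, since the study names paired and repeated-measures tests. The labels number replicates but do not say whether they are separate animals. The p-values are set against the spread left between these samples once group and replicate number are fitted. Adjusted p-values are Benjamini-Hochberg over all genes tested, with a threshold of 0.05. Deviations of same-numbered libraries correlated above 0.1 in every pair in 7 of 11 comparisons. Chi-square divided by its degrees of freedom was at least 6.65 in the 70 pairs of replicates, so no pair agreed within sampling noise. CPM are normalized counts scaled to library size. The members and lists were chosen with earlier results of these data known. Named genes were all members and, from the lists, up to 3 genes with the largest rise and fall past the threshold. Likeness was named for the 3 highest correlations, and some genes these rules pick are not reported here. Simulated counts with known changes were used to test the model. The settings changed in turn were DESeq2 1.42.0, RLE normalization, a looser filter (1 count in any library) or stricter one (10 in each), no block, only the groups compared, each replicate left out, and a log2 change of 1 or more either way.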

Additional observations from a re-analysis of the deposited data

Results flagged for a closer look

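A library stood apart from the other 4 of its group by Dixon's test in 6 of 70 member and group pairs, where chance gives about 3.5. These were replicate 1 at pH 6.6 with IL-2 for Bcl2 (788.9 CPM), replicate 2 at pH 6.6 with IL-2 for Bbc3 (91.67 CPM), replicate 1 for Pmaip1 at 0 h (37.83 CPM) and at pH 7.4 with IL-2 (44.53 CPM), replicate 4 for Bid at 0 h (24.13 CPM) and replicate 1 for Bid at pH 7.4 with IL-2 (37.84 CPM). By the interaction test in edgeR, IL-2 altered the response to pH 6.6 of 7 of the 10 members, beside 67% of all genes, Bcl2l1 by -2.29, Mcl1 by 0.68, Bcl2l11 by 1.81, Bbc3 by 1.81, Bax by -0.39, Bak1 by -1.48 and Bid by -0.55 on the log2 scale. The call of Bax was lost without replicate 1 or replicate 2 (edgeR adjusted p = 0.0737 and 0.0596).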

How the results depend on the processing

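Of the members' log2 fold changes over all comparisons and alternatives, 1230 kept their direction and side of the threshold, 58 lost the call, 11 gained it and 21 turned, and the 21 were of members not past the threshold. The cause was not tested. Where a log2 change of 1 or more either way was also asked for, the count of members fell to 4 for pH 6.6 against pH 7.4 with IL-2, 0 for pH 7 with IL-2, 4 for pH 6.6 without IL-2, 1 for IL-2 at pH 6.6, 4 for the interaction, and 2, 4, 2 and 5 for pH 7.4 with and without and pH 6.6 with and without IL-2 against 0 h. Over all genes, these counts were 4753, 203, 2829, 62 (pH 7 without IL-2), 5657 (IL-2 at pH 7.4), 4920 (IL-2 at pH 7), 516 (IL-2 at pH 6.6), 4688 (interaction), and 2091, 4205, 3134 and 4495 against 0 h. Without the replicate block, 1 member passed at pH 7 with IL-2, and 1660 genes passed there and 56 at pH 7 without IL-2. The block changed the calls of Bcl2l11 and Bbc3 for IL-2 at pH 6.6, as given above, and no other member count by over 1.5 times. Under the looser filter, 1 member passed at pH 7 with IL-2 and 3 for IL-2 at pH 6.6. With only the groups compared in the fit, 1 member (Pmaip1) passed at pH 7 without IL-2, and 4388, 942 and 5369 genes passed at pH 7 with IL-2, at pH 7 without IL-2 and for IL-2 at pH 6.6. With a replicate left out, 1 to 3 members and 1283 to 2425 genes passed at pH 7 with IL-2, 35 to 332 genes at pH 7 without IL-2 and 2119 to 2630 genes for IL-2 at pH 6.6. Values that turned in sign with 1 replicate left out in turn had these ranges. With IL-2 at pH 7, Bbc3 had -0.089 to 0.16 and Bad -0.098 to 0.091. Without IL-2 at pH 7, Bcl2l11 had -0.046 to 0.012, Bbc3 -0.065 to 0.10 and Bad -0.054 to 0.079. For IL-2 at pH 7.4, Pmaip1 had -0.10 to 0.27 and Bad -0.061 to 0.076. For IL-2 at pH 7, Bax had -0.0069 to 0.21 and Bad -0.073 to 0.14. For IL-2 at pH 6.6, Bad had -0.038 to 0.00699. For the interaction, Pmaip1 had -0.42 to 0.027 and Bad -0.097 to 0.068. For Bbc3 at pH 7.4 without IL-2 against 0 h they were -0.034 to 0.42. Bad also turned under the stricter filter for IL-2 at pH 7.4 (-0.035) and the interaction (0.0069), and with only the groups compared for IL-2 at pH 6.6 (0.0081). With 5 replicates a group and 24 h as the one time, changes near the threshold, such as those at pH 7, are the least certain.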
